A study of Mus musculus with 4 samples.

Results

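The genes of non-homologous end joining (NHEJ) were followed across the first maturation step of mouse blood formation. NHEJ was taken as 8 genes, Xrcc5, Xrcc6, Prkdc, Dclre1c, Lig4, Xrcc4, Nhej1 and Trp53bp1. Their probe sets were those that the array's platform annotation assigns to exactly 1 gene that is a member. The rule found 15 probe sets of 7 of the 8 genes, among 34945 probe sets that name 1 of 18193 genes. Dclre1c, the gene of the Artemis nuclease, had no such probe set and was not analysed here. The groups were stem cells (HSC, the CD34-negative fraction of KSL cells, 2 samples) and the multipotent progenitors that follow them (MPP, CD34-positive KSL cells, 2 samples), sorted from C57BL/6 mice with no treatment named in the labels. KSL cells are early blood precursors, gated with c-Kit and Sca-1 on their surface and no markers of mature lineages. Age and sex of the mice are not given in the sources used here, and the replicates are called biological without a statement on separate animals. The RNA of 3000 cells was amplified for each sample, which was then measured on its own array (Affymetrix Mouse Genome 430 2.0), where the signal of a probe set, in arbitrary intensity units, stands for a transcript.

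NHEJ rejoins the ends of a broken DNA double strand without a template. The Ku ring, made of the products of Xrcc6 (Ku70) and Xrcc5 (Ku80), threads onto each end and recruits the kinase encoded by Prkdc, which activates Artemis to trim the ends. The ligase encoded by Lig4 then seals them together with Xrcc4 and Nhej1 (XLF), while the chromatin protein encoded by Trp53bp1 shields ends from resection and so favours joining. Because it needs no sister chromatid, NHEJ can act in cells that are not dividing, and it also completes V(D)J recombination in lymphoid precursors. Loss of its genes in mice is known to damage blood stem cell function.

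The arrays had median intensities of 26.1 and 26.9 units in HSC and 22.0 and 21.3 units in MPP, and 4 arrays limit the precision of each value below. The 3' to 5' signal ratio of the actin control was 9.42 on HSC replicate 2, against 5.26 on HSC replicate 1, and it was 4.99 and 5.01 in MPP. The labels were checked on sort and stem cell markers. Cd34 read 469 and 235 units in HSC and 1967 and 2302 units in MPP, and all 6 markers examined differed between the groups (3 higher and 3 lower in HSC, limma adjusted p under 0.05). For Kit, at 0.65 higher in HSC, the call was lost in 6 of 12 alternatives, where the difference ran from 0.41 to 0.67 with equal array medians (adjusted p = 0.150), without HSC replicate 1 (0.0601), without MPP replicate 1 (0.220) or 2 (0.182), without the trend (0.198) or without the filter (0.0850). Of 5 T cell genes with a probe set, 4 lay at or under the floor on every array, the floor being the highest signal among 27 bacterial control probe sets (16.9 and 16.7 units for HSC, 14.9 and 13.6 units for MPP). The same held for 2 of 4 B cell genes, 1 of 6 granulocyte genes, 1 of 4 monocyte and macrophage genes and 1 of 3 erythroid genes. Among those above the floor on every array, the B cell gene Cd79b read 140 and 145 units in HSC and 117 and 152 units in MPP. The T cell gene Cd8a read 44.4 and 46.2 units in HSC and 16.0 and 30.3 units in MPP. The granulocyte gene Elane read 27.0 and 19.0 units in HSC and 36.4 and 109 units in MPP. These genes were not called. The summed signal of the 4 monocyte and macrophage genes was 108 to 157 units in HSC and 345 to 606 units in MPP. Csf1r, the member called lower in HSC, carried this difference, with 54.0 and 30.9 units in HSC and 282 and 552 units in MPP. Cd14 went the other way without a call, with 41.3 and 25.3 units in HSC and 5.18 and 19.8 units in MPP. Adgre1 overlapped between the groups, and Itgam lay under the floor on every array. The part of other cells in the results below was not tested.

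Xrcc6, which encodes Ku70, was lower in HSC than in MPP, and it was the NHEJ gene that passed the test. On probe set 1417437_at it read 447 and 493 units in HSC, against 829 and 855 units in MPP. Both HSC arrays lay well below both MPP arrays, and on the log2 scale the replicates differed by 0.14 in HSC and 0.04 in MPP. Xrcc6 averaged 470 ± 32.4 units in HSC and 842 ± 18.3 units in MPP (SD, n = 2 each), which made it 1.78-fold lower in HSC. The log2 difference, HSC minus MPP, was -0.83 (SE 0.16, 95% interval -1.20 to -0.47, limma adjusted p = 0.00919 over all probe sets). In bulk RNA, fewer cells that express a gene and less RNA per cell cannot be told apart. A second Xrcc6 probe set, 1428504_at, read 7.95 and 12.1 units in HSC and 15.9 and 1.99 units in MPP. It lay under the floor on 3 of 4 arrays, did not pass the filter on dim probe sets and gives no measure of the gene.

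Xrcc5, whose product forms the ring with that of Xrcc6, was not called. It read 129 and 182 units in HSC and 110 and 121 units in MPP, so that both HSC arrays were above both MPP arrays. It averaged 156 ± 37.5 units in HSC and 116 ± 7.50 units in MPP (SD, n = 2 each). The log2 difference was 0.39 (SE 0.24, 95% interval -0.14 to 0.93), which did not pass the test (limma adjusted p = 0.358). The direct comparison of the pair was added after their values had been seen. On the log2 scale Xrcc6 minus Xrcc5 was 1.74 and 1.41 in HSC and 2.84 and 2.76 in MPP, a difference of -1.23 between the group means. This was larger than the distance between replicates, 0.34 in HSC and 0.08 in MPP, and the groups did not overlap. It is given as a description, since it was picked for its size and an exact 2-sided permutation test of 2 against 2 arrays cannot go below p = 0.333. Each gene is read here by 1 probe set, so the level of Xrcc6 cannot be set against that of Xrcc5.

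**Figure D1:**
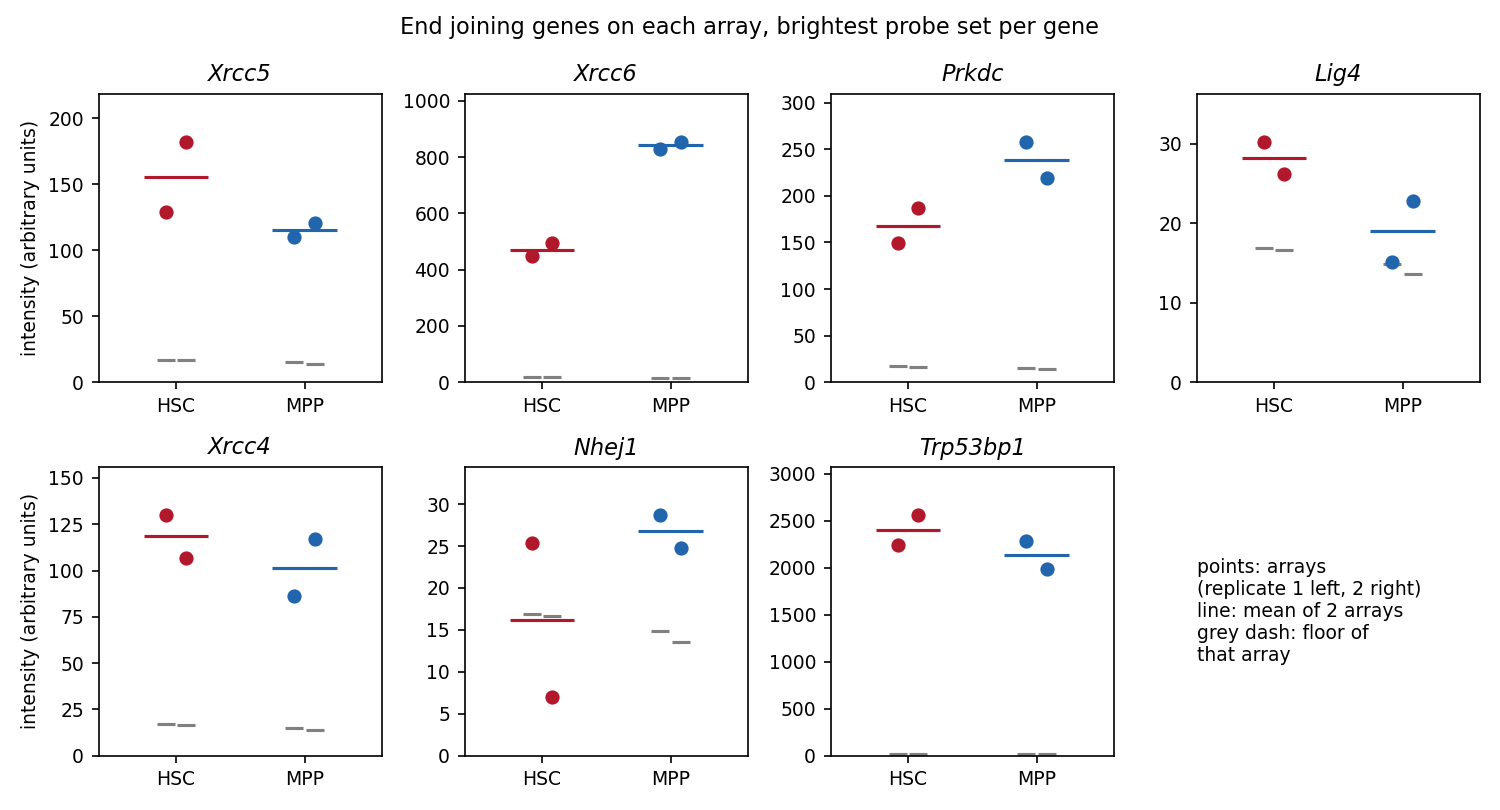
Intensity in arbitrary units on each array for the brightest probe set of the 7 end joining genes, with HSC left and MPP right, each panel on its own axis from 0. Points are arrays, coloured lines are means of 2 arrays and grey dashes mark the floor of each array. Xrcc6 separates at 447 and 493 units in HSC against 829 and 855 in MPP, while Lig4 and Nhej1 sit near the floor.

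The promoter windows of the Ku pair are shown because 1 gene of the pair was called and the other was not. They are from RefSeq, build GRCm38.p6, and run from 250 bases before to 50 bases after the gene start. Capitals mark matches, on either strand, to an E2F core (TTCCCGC, or TTGGCGC, or TTCGCGC, or TTGCCGC), to the NF-Y box CCAAT, to the SP1 box GGGCGG, to the ETS site CCGGAAG, to the CHR element TTTGAA or to the NRF1 core GCGCATG. The Xrcc6 window is chr15:82016119-82016418, plus strand, and that of Xrcc5 is chr1:72307171-72307470, plus strand.
Xrcc6: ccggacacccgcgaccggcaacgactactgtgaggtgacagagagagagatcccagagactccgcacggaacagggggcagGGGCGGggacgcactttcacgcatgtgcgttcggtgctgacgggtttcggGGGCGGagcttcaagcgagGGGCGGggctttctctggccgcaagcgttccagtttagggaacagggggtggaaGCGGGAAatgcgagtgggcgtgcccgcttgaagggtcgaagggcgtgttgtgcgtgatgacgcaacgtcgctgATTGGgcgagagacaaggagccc
Xrcc5: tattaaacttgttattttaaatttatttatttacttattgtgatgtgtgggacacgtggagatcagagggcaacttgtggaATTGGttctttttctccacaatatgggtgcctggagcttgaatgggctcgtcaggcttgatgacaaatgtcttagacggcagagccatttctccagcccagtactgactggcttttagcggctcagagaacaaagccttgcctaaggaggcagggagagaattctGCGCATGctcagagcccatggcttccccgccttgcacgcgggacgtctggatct

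The Xrcc6 window held 3 SP1 boxes, 1 E2F core on the opposite strand and 1 CCAAT box after the start. The Xrcc5 window held 1 CCAAT box and 1 NRF1 core. Among all 32851 windows of the table, 35.7% held an SP1 box, 9.57% an E2F core, 37.4% a CCAAT box and 3.91% an NRF1 core. Windows were found for 7 of the 8 members, and an E2F core was in those of 3 of them (Xrcc6, Xrcc4 and Lig4), of which Xrcc6 alone was called between the groups. SP1 boxes were in the windows of 6 members, CCAAT boxes in those of 3, ETS sites in those of 3 and NRF1 cores in those of 2. The CHR element was in none, beside 17.9% of all windows, and ETS sites were in 8.86% of all windows. Lig4 has 2 windows, so counts of members are not shares of windows. A match describes the letters of these windows, and none of the values here measure binding.

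Prkdc, which encodes the catalytic subunit of the DNA-dependent protein kinase, read 149 and 187 units in HSC and 258 and 219 units in MPP. Both HSC arrays were below both MPP arrays, but on the log2 scale replicates differed by 0.31 in HSC and 0.23 in MPP. Prkdc averaged 168 ± 26.3 units in HSC and 239 ± 27.8 units in MPP (SD, n = 2 each). The log2 difference was -0.50 (SE 0.21, 95% interval -0.97 to -0.02) with limma adjusted p = 0.184, so it was not called over the whole array. After array medians were equalised it was -0.73 and was called (adjusted p = 0.0491), and over the alternatives tried its adjusted p ran from 0.0491 to 0.608.

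The ligation genes passed the test in neither direction. Xrcc4, the scaffold of the ligase, read 130 and 107 units in HSC and 86.0 and 117 units in MPP on its brighter probe set, 1424601_at, and the groups overlapped. The log2 difference was 0.22 (SE 0.25, limma adjusted p = 0.647), and -0.01 with equal array medians. On the second Xrcc4 probe set, 1424602_s_at, the values were 136 and 98.4 units in HSC and 81.4 and 77.2 units in MPP, without overlap and with a log2 difference of 0.51 (SE 0.26, adjusted p = 0.251). Both probe sets thus gave intervals that reach from below 0 to 0.78 and 1.08.

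Lig4, the ligase itself, was dim. It read 30.3 and 26.1 units in HSC and 15.1 and 22.8 units in MPP, where the first MPP array was barely above its floor of 14.9 units. The log2 difference was 0.47 (SE 0.40, 95% interval -0.43 to 1.36, limma adjusted p = 0.524). Nhej1, which encodes XLF, was dimmer still. Its brighter probe set, 1429098_s_at, read 25.4 and 7.05 units in HSC and 28.7 and 24.8 units in MPP, and only 1 of the 2 HSC arrays was above the floor. The low value came from HSC replicate 2, the array with the high actin ratio, whose part in it was not tested. On the other probe set, given below, HSC replicate 2 read higher than HSC replicate 1. The log2 difference was -0.69 (SE 0.50, adjusted p = 0.438), and -0.06 without that array. The other Nhej1 probe set, 1425651_at, read 8.26 and 14.2 units in HSC, under the floor on both arrays, and 18.7 and 23.6 units in MPP. Its log2 difference was -0.67 (SE 0.47, 95% interval -1.72 to 0.37, limma adjusted p = 0.424), an interval that includes 0. The ratio of the mean of the MPP arrays to the floor was 1.19-fold on the log2(intensity + pseudocount) scale. This ratio is a bound on the measured values only and was not tested.

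Trp53bp1 was read by 6 probe sets, all of which passed the filter. On the brightest, 1426956_a_at, it read 2240 and 2559 units in HSC and 2280 and 1990 units in MPP, and the groups overlapped. The means were 2399 ± 226 units in HSC and 2135 ± 205 units in MPP (SD, n = 2 each). The log2 difference was 0.17 (SE 0.16, 95% interval -0.18 to 0.51, limma adjusted p = 0.560), and it turned to -0.07 with equal array medians. Of the 6 probe sets, 5 gave a difference above 0 and 1 below, from -0.04 to 0.45, and none was called (adjusted p from 0.475 to 0.961). The interval of the brightest one leaves room for changes of up to 1.43-fold upward in HSC.

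**Figure D2:**
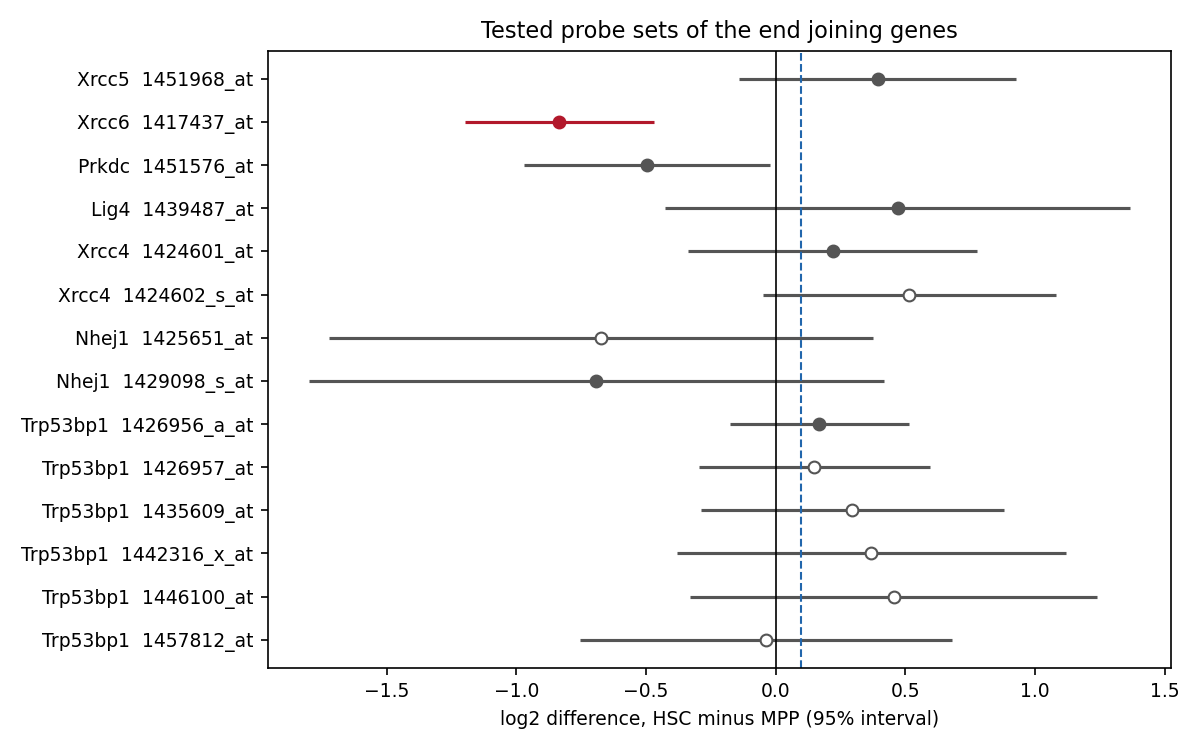
Log2 difference, HSC minus MPP, for the 14 tested probe sets of the 7 genes, with 95% intervals from limma. Filled points are the brightest probe set of each gene, red marks adjusted p under 0.05, and the dashed line is the median of all genes tested (0.10). The interval of Xrcc6 runs from -1.20 to -0.47, and the 2 probe sets of Nhej1 have the widest intervals of the set.

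Read together by their brightest tested probe sets, 1 of the 7 genes (14.3%) was lower in HSC and none was higher, and 6 were not called (limma adjusted p from 0.184 to 0.647). At an unadjusted p under 0.05, 2 were lower and 0 higher, beside 11.8% lower and 16.9% higher among all genes tested. At the adjusted threshold, over the whole array 5.9% of the 12382 genes tested were called lower and 7.71% higher in HSC, 13.6% in all, so the share of calls in either direction was near the background. The split of all calls moved with scaling. Of the genes called, 56.6% were higher in HSC with values as deposited and 31.6% with equal array medians. The HSC and MPP values did not overlap for 4 of the 7 genes, Xrcc5 and Lig4 with HSC above and Xrcc6 and Prkdc with HSC below, while 58.7% of all genes tested showed no overlap and 23.4% lay lower in HSC without overlap. By probe set, 1 of the 14 tested was called, beside 10.6% of all probe sets (5.96% higher and 4.65% lower in HSC). The median log2 difference was 0.17 over the 7 genes and 0.10 over all genes tested. With equal array medians these became -0.07 and -0.14, and after quantile normalization 0.10 and 0.02. Relative to the median of all genes Xrcc6 was at -0.93 as deposited and at -0.76 after quantile normalization. Equal array medians shift all genes alike and cannot change this value. Among probe sets of about the mean level of Xrcc6 (decile 10, the brightest), the median difference was -0.10. In decile 2, which holds Lig4 (0.47) and Nhej1 (-0.69), it was 0.25. It was 0.09 in the decile of Xrcc5 and 0.01 in that of Prkdc.

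The call of Xrcc6 held in 10 of 13 alternatives, with log2 differences from -1.07 to -0.74. It was lost without MPP replicate 1 (-0.86, adjusted p = 0.0699), without MPP replicate 2 (-0.81, adjusted p = 0.0909) and with a prior variance free of trend (-0.83, adjusted p = 0.110), at sizes close to the -0.83 reported. Leaving out an array leaves 1 sample in its group, which is then assumed to vary like the pair that remains, so the spread rests on that pair and on the variance shared across probe sets. This holds for each call given as kept or lost without an array. Without HSC replicate 2, the array with the high actin ratio, the difference was -0.90 (adjusted p = 0.00411). The difference stayed below 0 for Xrcc6, Prkdc and Nhej1 and above 0 for Xrcc5 and Lig4 in each alternative that tested them. Filters, the trend and the replicate block change the test but cannot move a difference. Other choices of probe sets cannot either for Xrcc5, Xrcc6, Prkdc and Lig4, with 1 tested probe set each. For these genes only the pseudocount, the 2 normalizations and leaving out an array could move it.

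**Figure D3:**
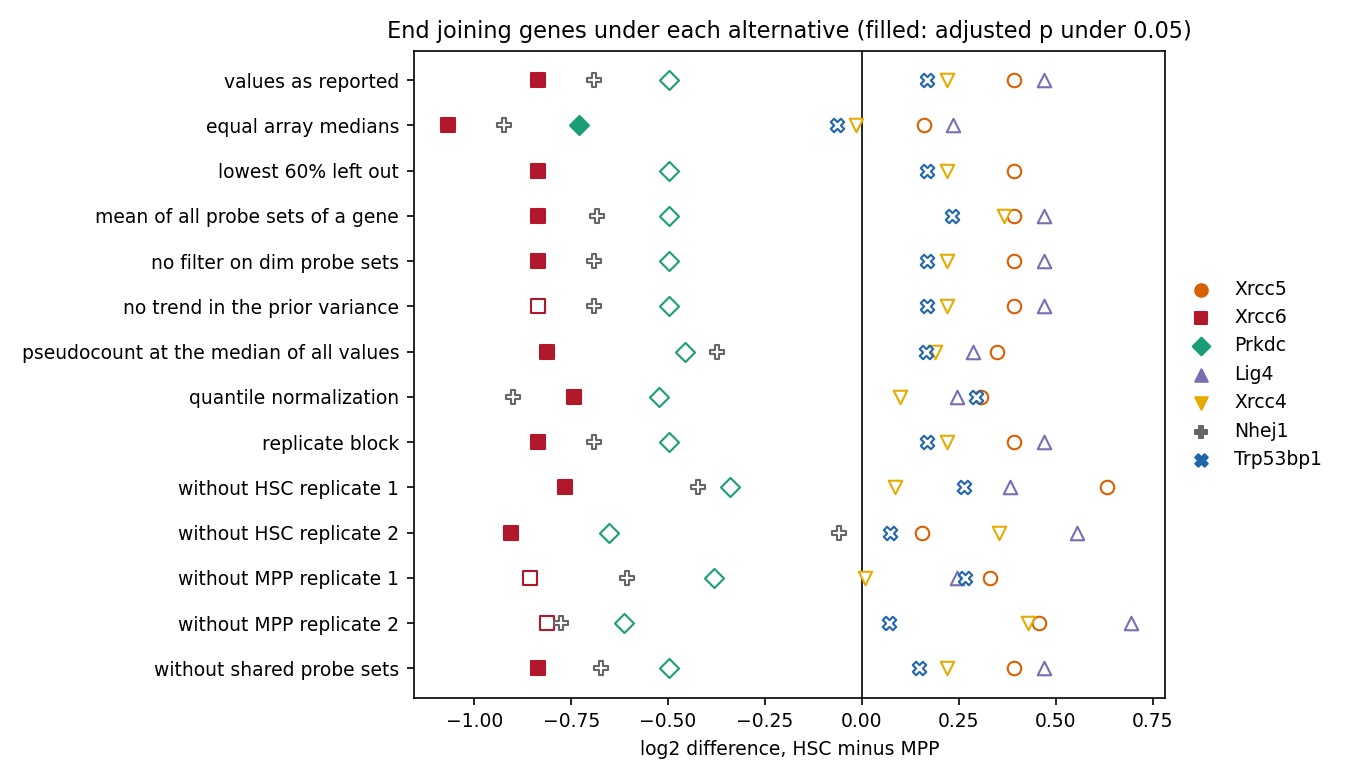
Log2 difference, HSC minus MPP, of the 7 end joining genes with values as reported and under each of 13 alternatives. Symbols are genes and filled symbols have adjusted p under 0.05. Xrcc6 lies between -1.07 and -0.74 throughout, Prkdc is filled only with equal array medians, and Xrcc4 and Trp53bp1 cross 0 in that setting. Lig4 and Nhej1 are missing where the lowest 60% were left out. Nhej1 is read by its other probe set, 1425651_at, without HSC replicate 1 and without shared probe sets. The row labelled without shared probe sets leaves out names that end in _x_at, _s_at or _a_at. An _a_at ending does not by itself mark probes shared with other genes.

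The other genes of double-strand break repair were described in 6 lists. Of 58 genes, 47 were tested, 14 were lower in HSC and none was higher, and the median log2 difference was -0.56, beside 5.9% lower and a median of 0.10 over all genes. At an unadjusted p under 0.05 in limma, 22 of the 47 were lower and 0 higher, beside 11.8% and 16.9% of all genes. These counts read each gene by its brightest probe set, and 3 genes not called there were called on another probe set, Paxip1 and Rif1 lower and Rad51d higher in HSC. Without MPP replicate 1 the number called lower was 7 and without MPP replicate 2 it was 9. In the pathway's own accessory and end-processing genes, 1 of 7 was lower and none was higher. This was Tdp2, which removes trapped topoisomerase II from DNA ends, with 634 and 439 units in HSC and 930 and 811 units in MPP (log2 difference -0.71, SE 0.20, limma adjusted p = 0.0478). The call of Tdp2 ended in 6 of 13 alternatives, among them those without HSC replicate 2 (-0.45, adjusted p = 0.124), MPP replicate 1 (-0.62, adjusted p = 0.267) or MPP replicate 2 (-0.81, adjusted p = 0.117). Without HSC replicate 1 the list had 2 calls. Paxx, a relative of Xrcc4 that binds Ku, read 113 and 112 units in HSC and 87.6 and 92.1 units in MPP (0.31, adjusted p = 0.465).

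In break signalling and the Trp53bp1 axis, 2 of 14 genes were lower and none was higher. H2ax, the histone whose phosphorylation marks a break, read 252 and 256 units in HSC and 944 and 1009 units in MPP (log2 difference -1.92, SE 0.17). Dynll1, a dynein light chain that binds the Trp53bp1 protein, read 1192 and 1514 units in HSC and 3312 and 2886 units in MPP (-1.20, SE 0.17). Both HSC arrays lay far below the MPP arrays for the pair. Atm, the kinase that responds to breaks, was at -0.37 and was not called (adjusted p = 0.268). Without HSC replicate 1 the number called lower in this list was 4.

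In alternative end joining, a back-up route that uses short homologies, 2 of 5 genes were lower. These were the ligase gene Lig1, with 256 and 322 units in HSC and 758 and 670 units in MPP (-1.29, SE 0.19), and Parp1, a sensor of DNA ends, with 753 and 734 units in HSC and 1176 and 1163 units in MPP (-0.65, SE 0.15, adjusted p = 0.0228). The call of Parp1 ended in 6 of 13 alternatives, among them those without MPP replicate 1 (-0.64) or MPP replicate 2 (-0.66). It also ended with names in _x_at, _s_at or _a_at left out (-0.26, limma adjusted p = 0.369). In end resection, the step that commits a break to recombination, 2 of 6 were lower, the nuclease gene Exo1 (-1.98, SE 0.25) and the helicase gene Blm (-0.76, SE 0.19, adjusted p = 0.0279). Without either MPP array 1 was lower, and Blm lost its call at differences of -0.66 and -0.86 (adjusted p = 0.229 and 0.0971).

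In homologous recombination, which copies the sister chromatid, 5 of 12 genes were lower in HSC and none was higher by their brightest probe sets, with a median of -0.78. Rad51ap1, whose product promotes strand exchange, read 191 and 220 units in HSC and 698 and 687 units in MPP (-1.73, SE 0.18). Rad54l, a motor protein of strand exchange, read 198 and 211 units in HSC and 464 and 378 units in MPP (-1.01, SE 0.19, adjusted p = 0.00756). Rad51d ran the other way. On its brightest probe set it was at 0.60 and not called (adjusted p = 0.214), but on 1443891_at it read 110 and 89.0 units in HSC and 47.4 and 39.1 units in MPP and was called higher in HSC (1.09, SE 0.28, adjusted p = 0.0298). Without MPP replicate 1 the list had 1 gene lower, a median of -0.42, and no call for Rad54l (-0.87, adjusted p = 0.0928). Without MPP replicate 2 it had 3. Of the V(D)J recombination partners, 2 of 3 tested were lower. Dntt, the polymerase that adds untemplated bases at joins made by NHEJ, read 32.7 and 37.3 units in HSC and 2244 and 3408 units in MPP, and Hmgb2, a DNA-bending cofactor of the RAG proteins, 573 and 527 units in HSC and 1596 and 1501 units in MPP (-1.48, SE 0.16). A second Hmgb2 probe set, 1452534_a_at, read 128 and 158 units in HSC and 596 and 435 units in MPP and was also called (-1.80, SE 0.22). With names ending in _x_at, _s_at or _a_at left out, Hmgb2 was at -0.37 and not called (limma adjusted p = 0.440). Proliferation genes moved with these lists and with Xrcc6: all 15 tested were lower in HSC, with a median of -1.83 and summed signals of 10739 and 10600 units in HSC and 28140 and 25725 units in MPP. Their part in the values of the repair genes was not tested.

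**Figure D4:**
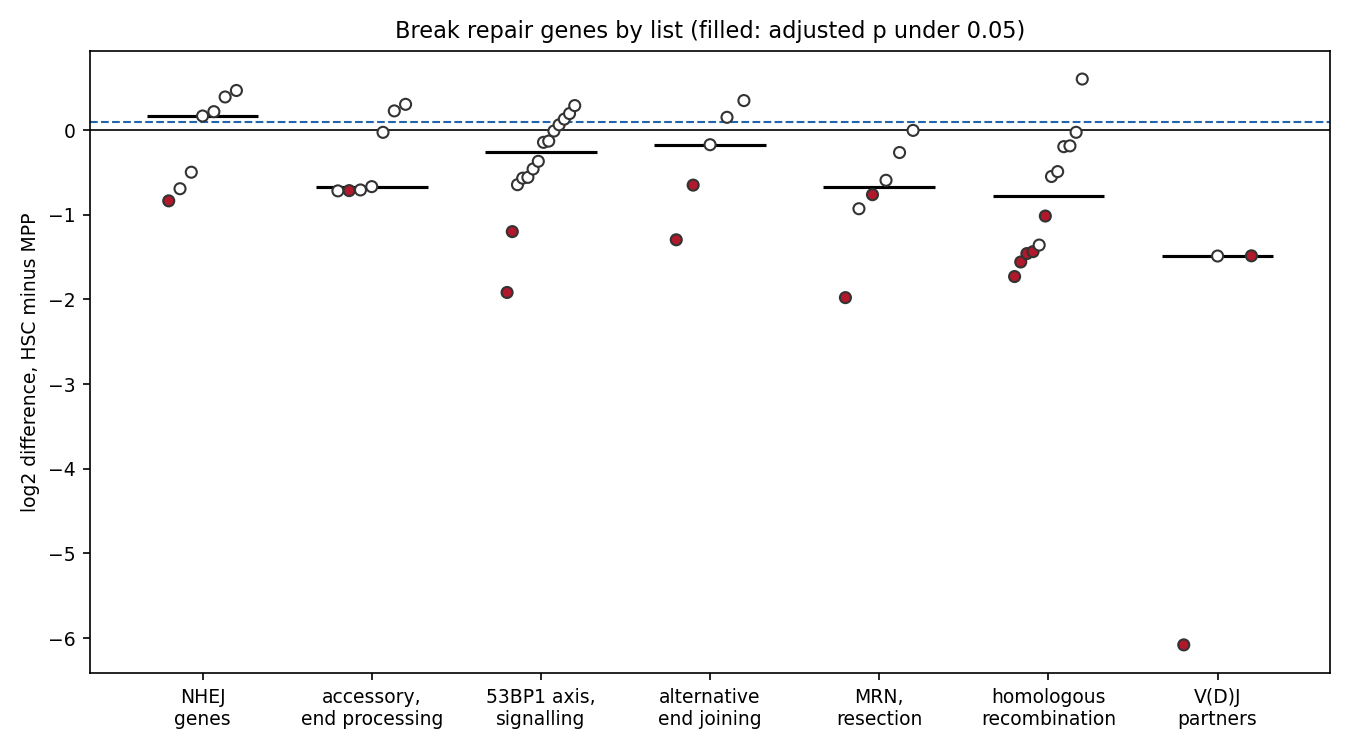
Log2 difference, HSC minus MPP, of each tested gene of the NHEJ set and of 6 other break repair lists, by the brightest probe set. Filled points have adjusted p under 0.05, black lines are list medians and the dashed line is the median of all genes tested (0.10). The median is 0.17 for the 7 NHEJ genes and -0.17 or lower for the other lists, where the lowest point is Dntt at -6.08. Over the alternatives these medians moved, from -0.07 to 0.23 for the NHEJ genes. The median of alternative end joining ran from -0.41 to 0.04 and that of the accessory list from -0.90 to -0.03.

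The profile most like that of Xrcc6 was sought among the 47 tested genes of the other repair lists, as the smallest Euclidean distance between log2 values over the 4 arrays, each gene centred on its own mean. The nearest were Blm (distance 0.19, log2 difference -0.76), Parp1 (distance 0.23, -0.65) and Mre11a (distance 0.25, -0.59, adjusted p = 0.101), which encodes the nuclease of the complex that first binds broken ends. Mre11a ranged with scaling and the choice of probe set, and was at -0.82 with equal array medians (limma adjusted p = 0.0273). It was at -0.12 with names in _x_at, _s_at or _a_at left out (adjusted p = 0.867). As the mean of its probe sets it was at -0.36 (adjusted p = 0.265), so its place here rests on its brightest probe set. Parp1 was at -0.42 as the mean of its probe sets (limma adjusted p = 0.116) and at -0.26 with those names left out (adjusted p = 0.369). Its place too rests on its brightest probe set. With 4 arrays this likeness is a description of values that sit low in HSC and high in MPP.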

How the data were processed

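The table held linear intensity values deposited by the authors, 1 per probe set and array. As the values show, each array had been scaled, with a mean of about 100.0 once the extreme 2% at either end are set aside. No source used here names the software. RNA was isolated with ISOGEN and amplified in a 2-cycle protocol, per the labels' protocols. Such amplification favours 3' ends, so signals depend on where a probe set lies. Control probe sets (64 of 45101) were dropped. Probe sets were named by the platform annotation, updated to RefSeq symbols through gene identifiers (34741 of 34945 matched).

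A pseudocount of 6.01, 0.25 times the median of all values, was added before taking log2, without further normalization, since the arrays' log2 medians spanned 0.27, under a limit of 0.5. Folds on this scale understate the change of dim genes. The dimmest 40% of probe sets by mean level were removed, which kept 27022. The comparison used limma 3.58.1 (R 4.3.3; lmFit, eBayes with a trend, 2-sided, no covariates), with Benjamini-Hochberg adjustment over all probe sets at 0.05. Degrees of freedom were 2 (residual) and 8.48 (prior), which means that most of the variance estimate is shared across probe sets, and p-values cover only the differences among these 4 samples, which may be technical. The code was tested on simulated data. Each gene was read by its brightest tested probe set, and the text names all members and, of each other list, the called genes with the smallest p, up to 2 per direction, or the 2 with the smallest p where none was called. Paxx, Atm, Csf1r, Cd14, Adgre1, Itgam, Cd79b, Cd8a and Elane were named after their values were seen. Alternatives were another pseudocount, other filters, 2 normalizations, no trend, a replicate block, other choices of probe sets and leaving out each array. The members and lists were chosen with earlier results of these data known. A planned comparison of member proteins was not run.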

Additional observations from a re-analysis of the deposited data

How the results depend on the processing

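Of 89 values of the 7 NHEJ genes under the alternatives, 83 kept their direction and their side of the threshold. The exceptions were Xrcc6, at -0.83 with no call without the trend in the prior variance (adjusted p = 0.110) and at -0.86 and -0.81 with no call without MPP replicate 1 or 2; Prkdc, called at -0.73 with equal array medians; and Xrcc4 and Trp53bp1, which turned to -0.014 and -0.065 with equal array medians without a call. The cause was not tested. Filters, the trend and the replicate block could not change a direction, only the side of the threshold. The number of NHEJ genes called lower was 2 with equal array medians, 0 without the trend and 0 to 1 with 1 array left out, and none was called higher in any alternative. The median of the 7 genes ran from -0.07 to 0.23.

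Of the other repair genes, 7 were called lower without the trend and 7 to 19 with 1 array left out, and their median was -0.79 with equal array medians. Over the whole array 1611 probe sets were called higher and 1257 lower as reported, 1020 and 2379 with equal array medians, 917 and 780 when dim probe sets were kept, and 633 and 374 without the trend. With 1 array left out, 1026 to 2011 were higher and 568 to 1908 lower. The labels do not say whether same-numbered samples were paired. The correlation of their deviations from the group means was 0.03, which does not settle the question. With the replicate number as a block, 2525 probe sets were higher and 1833 lower. Xrcc6 remained the called NHEJ gene there (limma adjusted p = 5.49e-04). That fit estimates 1 more term from the same 4 arrays. Its p-values lean still more on the variance shared across probe sets. Larger counts and smaller p-values there are thus no added support. With 1 array left out, Xrcc6 ran from -0.90 to -0.77. Quantile normalization moved the difference of Xrcc6 minus that of Xrcc5 to -1.05. Without the trend Dynll1, Lig1, Blm, Parp1, Rad54l and Tdp2 also lost their calls. Signal over background limits Lig4 and Nhej1, which lie near the floor. The stricter filter, which left out the lowest 60%, gave no value for either.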
